A study of Mus musculus with 9 samples.

Results

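The 7 genes for the synthesis, storage, breakdown and sensing of histamine and serotonin were examined in bone marrow-derived mast cells (BMMCs), and all were found by symbol among the 47643 genes of the deposited counts, 6 of them among the 11560 genes tested. They were chosen by name: Hdc, Tph1 and Ddc (synthesis), Slc18a2 (storage), Maob and Hnmt (breakdown) and Hrh4 (a receptor). RNA was sequenced from 9 BMMC libraries, 3 in each of 3 groups. BMMCs are mast cells grown from the marrow of C57BL/6 mice, here in medium conditioned by WEHI-3 cells, a source of IL-3. Control cells were untreated. BSA cells, labelled IgE+BSA, were sensitized with IgE against the hapten DNP and challenged with DNP-BSA, the antigen that cross-links it. BSA + luteolin cells, labelled IgE+BSA+Luteolin, additionally received the flavone luteolin, for which the labels give 10 μM and 24 h. Whether luteolin came before or after the antigen is not clear from the sources used here, nor is it stated whether Control cells carried IgE. Age and sex of the mice are not given, and nothing says that libraries of a group came from separate mice or cultures, so p-values may measure technical spread only.

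Mast cells make histamine from histidine by 1 decarboxylation step and pack it into granules, from which IgE cross-linking releases it within minutes. Rodent mast cells also make serotonin, from tryptophan, by hydroxylation and then decarboxylation. The same vesicular transporter loads both amines into granules. After release, histamine is cleared by methylation or by oxidation and serotonin by oxidation, and both act on families of cell surface receptors. The question for these genes was whether their transcripts differed between antigen-stimulated and untreated cells, and between stimulated cells with and without luteolin.

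Among the 6 genes that passed the filter on low counts, Hdc was the 1 gene that differed between BSA + luteolin and BSA in the main test, and it fell 2.23-fold. The fold changes of Slc18a2, Tph1 and Ddc in that comparison lay between 0.989 and 1.03. Maob had a fold change of 1.1 with luteolin, with an adjusted p of 0.0521 by edgeR's test. Outside these 7 genes, Gch1, which encodes the first enzyme in making the cofactor of tryptophan hydroxylase, was also higher in BSA than in both other groups, and the serotonin receptor gene Htr1b fell 13.5-fold with luteolin. None of the 6 genes passed edgeR's test against Control in the main fit, while DESeq2 and limma each called Hdc in BSA against Control, and 1 Control library stood apart from the others.

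Depth was 9515004 to 24605689 reads counted on genes per library, so that 3 counts corresponded to 0.122 to 0.315 CPM (reads per 1e6 counted reads), a floor that covers counting error only. Levels are given as CPM scaled by edgeR's TMM factors. Mast cell markers were present in every library. Fcer1a, the IgE receptor subunit, stood at 4364 to 6883 CPM and Kit at 1749.8 to 2479 CPM. Control replicate 1 stood apart from Control replicates 2 and 3. Its summed level of 7 neutrophil markers was 249.7 CPM, against 7.35 and 5.89 CPM in the other Control libraries, 179 to 195 CPM in BSA and 206 to 239 CPM in BSA + luteolin. Mcpt8, a basophil and immature mast cell protease, was at 432 CPM in Control replicate 1 and at 21.8 and 18.7 CPM in Control replicates 2 and 3. It was at 292 to 368 CPM in the 6 stimulated libraries. Among the other basophil markers, Cd200r3 was lower in Control replicate 1, at 688 CPM against 1044 and 1022 CPM, while Prss34 was higher, at 759 CPM against 649.6 and 610.5 CPM. The sum of the 5 markers was 1889.6, 1733 and 1669.9 CPM. The sum of 14 mast cell markers was 92584, 62902 and 62882 CPM, with Mcpt4 at 1752, 201 and 197 CPM. Elane and Camp, 2 of the neutrophil markers, were at 0 counts in Control replicate 2. Over all 9 libraries, the summed level of 5 megakaryocyte and platelet markers ranged over 1986 to 2452 CPM, that of 7 macrophage markers over 347 to 405 CPM, and that of 5 eosinophil markers reached at most 35.9 CPM. The sum of 5 lymphocyte and dendritic cell markers ranged over 7.21 to 17.3 CPM, with Cd3e and Ms4a1 at 0 counts throughout. The chi-square per degree of freedom between Control replicate 1 and the other Control libraries was 88.2 and 146, against 4.05 to 15.2 for all other pairs within a group. For the 6 tested genes and the counts of calls, comparisons with Control are therefore also given without this library and with this library as the only Control, the latter chosen after seeing the data. The part of these cells or of the culture in the Control values was not tested.

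**Figure D1:**
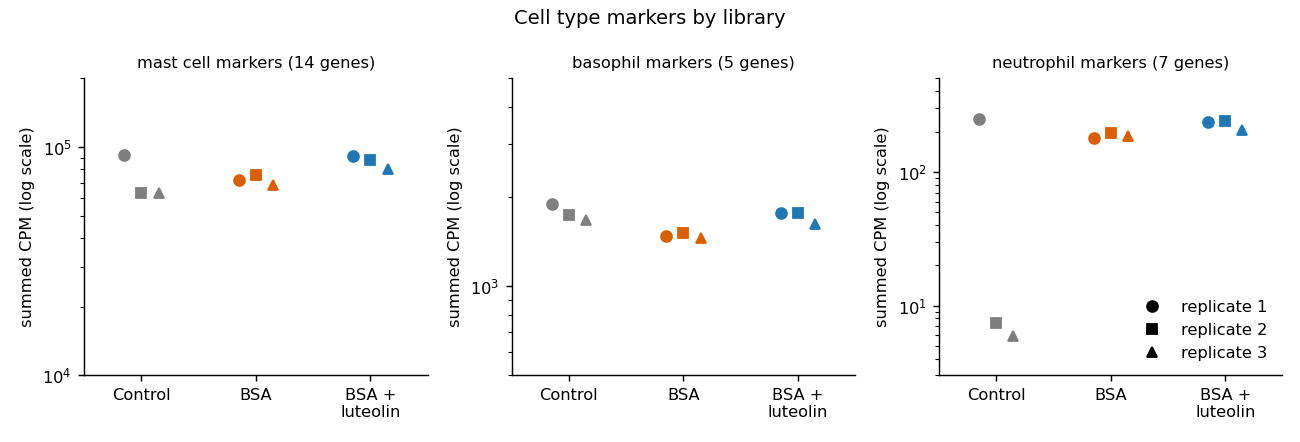
Summed TMM-normalized CPM (log scale) of mast cell, basophil and neutrophil marker lists in each of the 9 libraries, with 1 point a library and replicates by marker shape. Neutrophil markers of Control replicate 1 (249.7 CPM) lie beside the stimulated libraries, and those of Control replicates 2 and 3 (7.35 and 5.89 CPM) lie far below.

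Per kb of exon, the order of the 7 transcripts was the same in all 3 groups: Tph1, Slc18a2, Maob, Hdc, Hrh4, Ddc and Hnmt. Over the 9 libraries the mean level was 708 ± 35.6 CPM per kb (SD, n = 9) for Tph1, the tryptophan hydroxylase outside the brain and the first enzyme of serotonin synthesis. Slc18a2, the vesicular monoamine transporter VMAT2, followed with 289 ± 14.7 CPM per kb. Maob, a mitochondrial monoamine oxidase, had 183 ± 12.6 CPM per kb. Hdc, the histidine decarboxylase that makes histamine, had 84.9 ± 38.2 CPM per kb and the widest spread of the 4 abundant genes. Hrh4, the histamine receptor of blood cells and mast cells, had 6.66 ± 1.22 CPM per kb. Ddc, the aromatic amino acid decarboxylase that completes serotonin synthesis, had 2.85 ± 0.376 CPM per kb, far below its partner Tph1. Hnmt, the methyltransferase that inactivates histamine inside cells, had 0.463 ± 0.370 CPM per kb. Within each group, no library of a gene overlapped with the next gene in this order, though a gap could be smaller than the spread of a gene's libraries. In BSA the gap between Maob (178 to 183 CPM per kb) and Hdc (112 to 151 CPM per kb) was the narrowest among the 4 abundant genes. Exon lengths are of all annotated exons merged, which may exceed the transcripts these cells use.

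**Figure D2:**
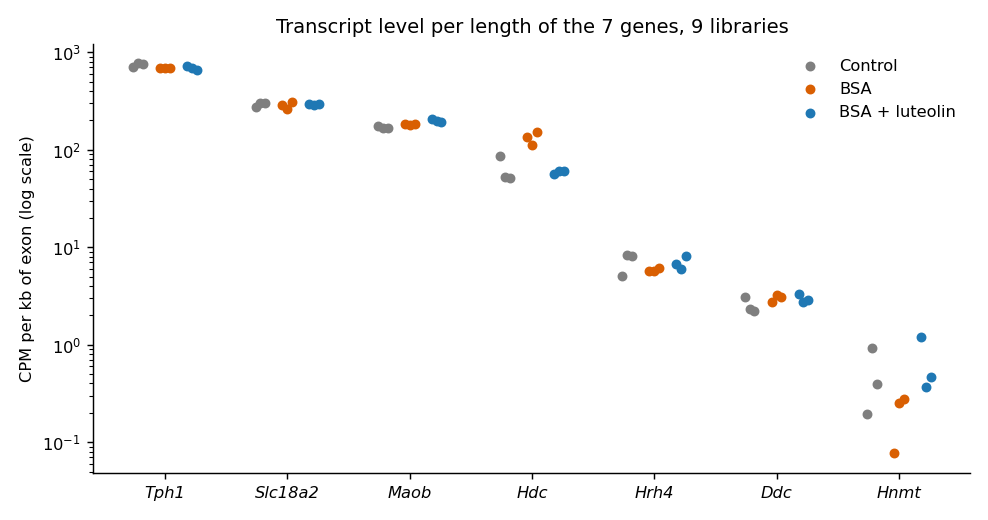
Level of each of the 7 genes in CPM per kb of merged exon (log scale), 1 point a library, colored by group. The genes keep one order from Tph1 (708 CPM per kb over the 9 libraries) to Hnmt (0.463 CPM per kb), and Hdc alone of the abundant genes is displaced upward in BSA.

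Hdc (ENSMUSG00000027360, minus strand of chromosome 2, 126593667 to 126619299, GRCm38) spanned 1.54 on the log2 scale over the 9 libraries, the widest of the 6 tested genes, where Hrh4 followed with 0.70. Its level was 549.6, 332 and 331 CPM in Control replicates 1 to 3. In BSA it was 854, 716 and 966 CPM, and in BSA + luteolin 359.9, 389.9 and 385 CPM. Every BSA library lay above every other library, the 3 luteolin libraries lay close together, and Control replicate 1 lay between BSA and the rest. These levels rest on 3428 to 19813 counts per library. In a bulk measurement, fewer cells with the transcript and less transcript per cell cannot be told apart.

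Luteolin-treated cells held 378 ± 16.0 CPM of Hdc (SD, n = 3), against 845 ± 125 CPM in BSA (SD, n = 3). The log2 fold change was -1.16 (standard error 0.08, 95% interval -1.33 to -0.99), a 2.23-fold lower level, with an adjusted p of 5.51e-09 from edgeR's quasi-likelihood test. By size it ranked 497 from the lowest of the 11560 genes tested. Of the 6 tested genes 1 was thus called (lower), in a comparison where 40.0% of all genes tested were called. Lower calls made up 21.9%, and calls with at least a 2-fold lower level 5.23%. Groups did not overlap for Hdc and Maob, 2 of the 6 tested genes, against 50.3% of all genes tested. The median log2 fold change of the 6 genes was 0.02, the same as over all genes. Basophils also express Hdc, and the summed level of 5 basophil markers ranged over 1455 to 1512 CPM in BSA and over 1617 to 1765 CPM with luteolin, higher where Hdc was lower. The sum of 14 mast cell markers ranged over 68365 to 75373 CPM and 80168 to 91685 CPM in the same groups. Of these 14 markers 7 were higher and 3 lower with luteolin, and Tpsab1, a mast cell tryptase, fell, at 218 to 219.6 CPM against 469 to 611 CPM in BSA (adjusted p = 3.01e-10 by edgeR's test). The part of these markers' cells in the difference was not tested.

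Stimulated and untreated cells held Hdc at 845 ± 125 CPM (SD, n = 3) and 404 ± 126 CPM (SD, n = 3), and the log2 fold change of BSA against Control was 1.06 (standard error 0.23, 95% interval 0.51 to 1.60), with an unadjusted p of 0.00235 and an adjusted p of 0.0619 by edgeR's quasi-likelihood test, which did not pass the threshold. Without Control replicate 1 the log2 fold change was 1.30 (adjusted p = 3.26e-07 by the same test). With Control replicate 1 as the only Control it was 0.60 (adjusted p = 0.00298), where the lone library was assumed to vary like the BSA libraries. The value was positive in all 3 versions, of which the last rests on 1 Control library picked after seeing the data. None of the 6 genes was called in the main test, in a comparison where 3.27% of all genes tested were called. Without Control replicate 1, 4 were called (2 higher and 2 lower) where 45.0% of all genes were, and against Control replicate 1 alone 1 was called where 42.3% were. Hdc was also the 1 gene with an unadjusted p under 0.05, and the 1 gene of the 6 called by DESeq2, where 10.6% of all genes were called, and by limma, where 3.41% were. Groups of 3 of the 6 genes (Hdc and Maob higher, Tph1 lower) did not overlap, against 28.7% of all genes tested. Their median log2 fold change was 0.02, as over all genes.

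Between BSA + luteolin and Control, the log2 fold change of Hdc was -0.10 (standard error 0.20, 95% interval -0.57 to 0.37, adjusted p = 0.773 by edgeR's test). The direction turned with the Control library used. It was 0.18 without Control replicate 1 (adjusted p = 0.0286), and against Control replicate 1 alone it was -0.54 (adjusted p = 1.57e-04). The luteolin libraries therefore lay above Control replicates 2 and 3 and below Control replicate 1. None of the 6 genes was called, where 3.04% of all genes tested were. Without Control replicate 1, 4 were called (3 higher and 1 lower) where 60.0% of all genes were, and against Control replicate 1 alone 1 was called (lower) where 21.2% were. The count was also 0 at an unadjusted p under 0.05, and by DESeq2 and limma. Maob alone did not overlap between the groups, 1 of 6 against 28.5% of all genes tested. The median log2 fold change was -0.03, against 0.01 over all genes. These 3 comparisons share libraries, since each group enters 2 of them.

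**Figure D3:**
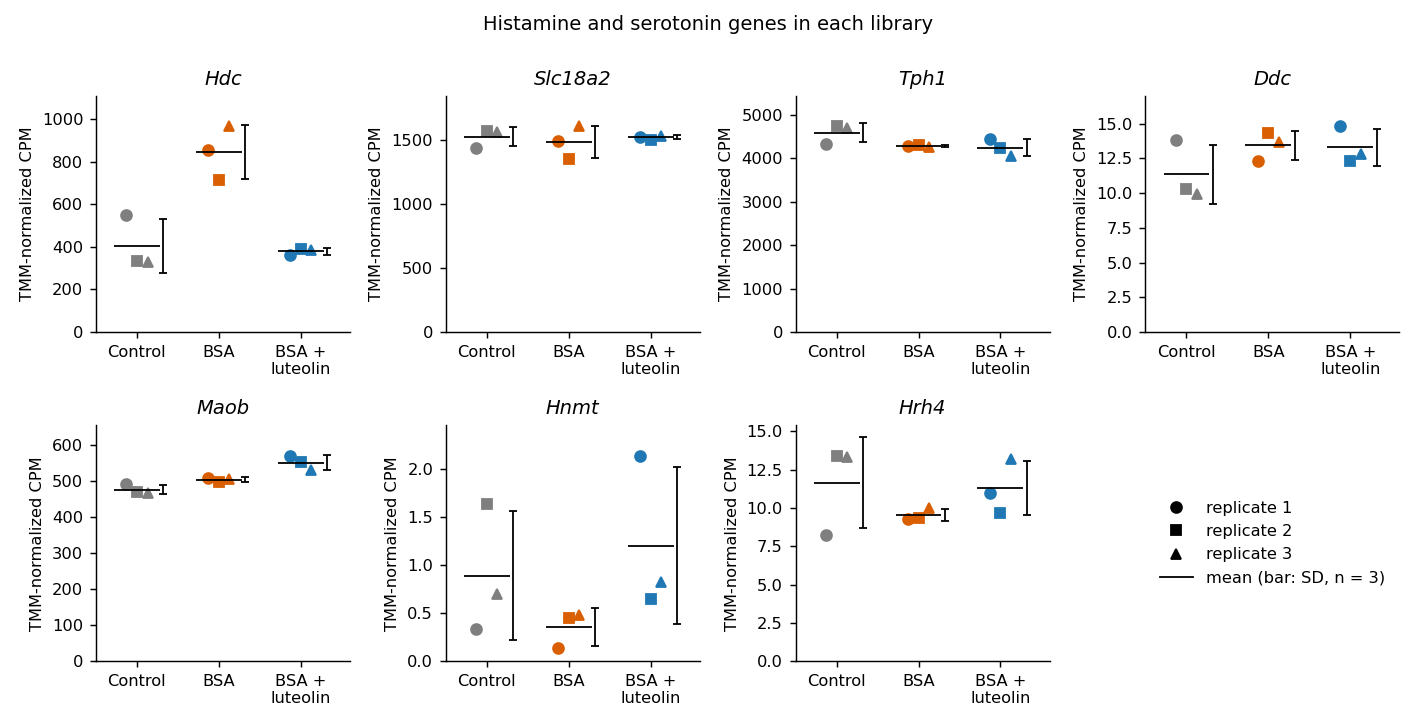
TMM-normalized CPM of the 7 genes in each library, with the vertical axis from 0, the mean as a line and the SD (n = 3) as a bar. Hdc in BSA (716 to 966 CPM) lies above all other libraries (331 to 549.6 CPM), while Hnmt lies between 0.136 and 2.14 CPM.

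Ratios of transcripts within a library do not depend on how libraries are scaled. The per-kb ratio of Hdc to Slc18a2 was 0.312, 0.172 and 0.173 in Control, 0.469, 0.432 and 0.492 in BSA and 0.193, 0.212 and 0.205 in BSA + luteolin. All BSA libraries thus exceeded all others on this measure also, and the luteolin libraries lay between Control replicates 2 and 3 and Control replicate 1. Hdc relative to Tph1 was 0.191 ± 0.0294 (SD, n = 3) in BSA and 0.0863 ± 0.00720 (SD, n = 3) in BSA + luteolin. The ratio of Tph1 to Slc18a2 was 2.54 ± 0.00775 in Control, 2.45 ± 0.225 in BSA and 2.36 ± 0.118 in BSA + luteolin (SD, n = 3 each), and its ranges overlapped between BSA and BSA + luteolin.

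The 250 bases upstream of the RefSeq start of Hdc are shown beside those of Gch1, which was also called lower with luteolin against BSA, and of Slc18a2, which was not called. The table of RefSeq windows used here (300 bases around the start, 250 before and 50 after, GRCm38.p6) was matched for 5 of the 7 genes, all but Maob and Hrh4. The Hdc window starts inside the longer gene model cited above. Capitals mark matches to the motifs searched, and the Slc18a2 stretch runs on past the RefSeq start to the end of a match that crosses it. That stretch ends at 59260881, before the gene model of Slc18a2 used here begins (59260896). The bases after the RefSeq start of Slc18a2 were not found in an annotated transcript of the gene.
Hdc, chr2:126618679-126618928, minus strand: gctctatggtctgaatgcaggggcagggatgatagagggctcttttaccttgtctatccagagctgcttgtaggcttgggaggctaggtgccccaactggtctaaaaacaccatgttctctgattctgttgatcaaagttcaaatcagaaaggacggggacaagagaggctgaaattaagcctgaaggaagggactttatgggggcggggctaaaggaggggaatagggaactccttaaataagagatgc
Gch1, chr14:47189414-47189663, minus strand: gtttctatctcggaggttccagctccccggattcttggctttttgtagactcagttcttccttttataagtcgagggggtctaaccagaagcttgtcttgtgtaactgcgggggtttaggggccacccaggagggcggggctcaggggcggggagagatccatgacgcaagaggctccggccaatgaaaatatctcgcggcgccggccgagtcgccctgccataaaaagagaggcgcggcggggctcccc
Slc18a2, chr19:59260628-59260881, plus strand: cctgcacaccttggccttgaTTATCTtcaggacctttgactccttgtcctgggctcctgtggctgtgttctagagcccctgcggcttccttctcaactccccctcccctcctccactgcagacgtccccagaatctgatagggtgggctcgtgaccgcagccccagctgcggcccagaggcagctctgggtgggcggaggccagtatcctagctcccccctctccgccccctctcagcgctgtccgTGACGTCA

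The search covered 8 spellings on both strands of these windows. CACGTG is the palindromic E-box of factors such as MITF, whose other spelling is CATGTG. The GATA factors are represented by AGATAA, with the variant spelling TGATAA. The AP-1 factors bind TGACTCA, whose reverse complement is TGAGTCA. For CREB the spelling was TGACGTCA, and factors of the EGR family have GCGTGGGCG. The Slc18a2 window held AGATAA on the minus strand at -230 to -225 from the start, printed as its reverse complement, and TGACGTCA from -4 to 3. The first is found in 11.2% and the second in 1.79% of all 32851 windows of the same length. None of the 8 spellings was found in the windows of Hdc, Gch1, Tph1, Ddc or Hnmt. Other spellings that these factors may bind were not searched, in these windows or in that of Slc18a2. CACGTG was present in 7.15%, CATGTG in 14.2%, TGATAA in 9.05%, the AP-1 spelling in 5.2% and GCGTGGGCG in 0.612% of all windows. These matches describe letters in a window and not binding.

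Slc18a2 (ENSMUSG00000025094, plus strand of chromosome 19, 59260896 to 59296012) spanned 0.25 on the log2 scale over the 9 libraries, against 0.22 for Tph1 and 0.28 for Maob. It was at 1439, 1573 and 1566 CPM in Control, at 1490.2, 1354 and 1607 CPM in BSA and at 1527, 1503 and 1536 CPM in BSA + luteolin. All groups overlapped. The fold change of BSA + luteolin against BSA was 1.03 (95% interval 0.942 to 1.12, adjusted p = 0.627 by edgeR's quasi-likelihood test). In BSA against Control it was 0.971 (95% interval 0.813 to 1.16, adjusted p = 0.874). Against Control the log2 fold change was -0.13 in BSA and -0.06 in BSA + luteolin without replicate 1, and 0.02 and 0.08 against replicate 1 alone, none past the threshold. An annotated antisense gene, Gm29261, overlaps this gene and held 1 to 14 counts per library, against 16268 to 38026 for Slc18a2. The paralog Slc18a1, singled out after its values were seen, held 35 counts over all 9 libraries.

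Tph1 (ENSMUSG00000040046, minus strand of chromosome 7, 46644641 to 46672537) was at 4330.4, 4732 and 4687 CPM in Control, at 4284, 4297 and 4248 CPM in BSA and at 4453, 4227 and 4056 CPM in BSA + luteolin. BSA libraries lay just below all Control libraries, and the luteolin libraries spanned the BSA range. Its fold change in BSA + luteolin against BSA was 0.995 (95% interval 0.924 to 1.07, adjusted p = 0.919 by edgeR's quasi-likelihood test). Against Control the log2 fold change was -0.10 in BSA (adjusted p = 0.621) and -0.12 in BSA + luteolin (adjusted p = 0.492). These passed the threshold without Control replicate 1, at -0.19 (adjusted p = 0.0295) and -0.16 (adjusted p = 0.0325). Against Control replicate 1 alone they were -0.04 and -0.03 and did not pass. Tph2, the neuronal paralog, had 0 counts in all libraries.

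Ddc (ENSMUSG00000020182, minus strand of chromosome 11, 11814101 to 11898144) was low, at 13.8, 10.3 and 9.93 CPM in Control, 12.3, 14.3 and 13.7 CPM in BSA and 14.8, 12.3 and 12.8 CPM in BSA + luteolin. Control replicates 2 and 3 were below all other libraries, and Control replicate 1 was among the stimulated ones. Its fold change with luteolin against BSA was 0.989 (95% interval 0.833 to 1.18, adjusted p = 0.932 by edgeR's quasi-likelihood test). Against Control, its log2 fold change was 0.24 in BSA (adjusted p = 0.509) and 0.22 in BSA + luteolin (adjusted p = 0.457). Without Control replicate 1 it was 0.36 in BSA (adjusted p = 0.0442) and 0.38 in BSA + luteolin (adjusted p = 0.0291), and against Control replicate 1 alone it was -0.05 in both. Per kb, Ddc stood at 0.00293 to 0.00461 of the Tph1 level in the 9 libraries. An antisense gene overlapping Ddc, 1700042O10Rik, held 7 to 30 counts per library against 107 to 317 for Ddc. Reads of the pair may be shared, since the strand setting of the counting is not given in the sources used here.

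Maob (ENSMUSG00000040147, minus strand of chromosome X, 16709282 to 16817366) was at 493, 470.1 and 469 CPM in Control, at 509.9, 497 and 506 CPM in BSA and at 571, 554 and 531 CPM in BSA + luteolin. The 3 groups did not overlap, with Control lowest and BSA + luteolin highest on the TMM scale, while library size alone put the log2 fold change of BSA against Control at -0.10. With luteolin against BSA the fold change was 1.1 (95% interval 1.02 to 1.18, unadjusted p = 0.0212, adjusted p = 0.0521 by edgeR's quasi-likelihood test). The call depended on the method, since DESeq2 gave an adjusted p of 0.0306 and limma 0.0444 at the same log2 fold change of 0.13. With library size alone as the scaling the log2 fold change was 0.25, while the median over all genes moved from 0.02 to 0.13. In BSA + luteolin against Control it was 0.20 (adjusted p = 0.231), and 0.22 without Control replicate 1 (adjusted p = 0.00769 by the edgeR test) and 0.16 against it alone (adjusted p = 0.15). For BSA against Control these were 0.08, 0.05 and 0.01, none past the threshold. The sister oxidase Maoa, also singled out after its values were seen, had 2.97 ± 0.253 CPM per kb in BSA (SD, n = 3), against 181 ± 2.36 CPM per kb for Maob.

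Hrh4 (ENSMUSG00000037346, on chromosome 18) was at 8.22, 13.4 and 13.3 CPM in Control, at 9.31, 9.35 and 10.0 CPM in BSA and at 11.0, 9.68 and 13.2 CPM in BSA + luteolin. All groups overlapped, and Control replicate 1 was the lowest of the 9 libraries. The log2 fold change was 0.24 in BSA + luteolin against BSA (95% interval -0.05 to 0.53, adjusted p = 0.179 by edgeR's quasi-likelihood test) and -0.28 in BSA against Control (adjusted p = 0.509). The latter was -0.53 without Control replicate 1 (adjusted p = 0.00539), and against Control replicate 1 alone it was 0.20 (adjusted p = 0.433). With luteolin against Control it was -0.05 (adjusted p = 0.911), -0.25 without that library and 0.45 against it alone. No direction can be given for Hrh4 against Control.

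Hnmt (ENSMUSG00000026986, minus strand of chromosome 2, 24002910 to 24049394) was below the filter on median CPM and was not tested in the main fit. It held 7, 17 and 17 counts in Control, 3, 9 and 10 in BSA and 46, 16 and 17 in BSA + luteolin. These correspond to 0.341, 1.64 and 0.700 CPM, 0.136, 0.450 and 0.488 CPM, and 2.14, 0.648 and 0.822 CPM. Luteolin libraries lay above all BSA libraries, and BSA replicate 1 was at 3 counts, the floor used here. With no filter on low counts, the log2 fold change of BSA + luteolin against BSA was 1.77 (standard error 0.53, adjusted p = 0.00540 by edgeR's quasi-likelihood test). The call rested on single libraries. Leaving out BSA + luteolin replicate 1 gave 1.05 (adjusted p = 0.362), and leaving out BSA replicate 1 gave 1.37 (adjusted p = 0.0750).

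**Figure D4:**
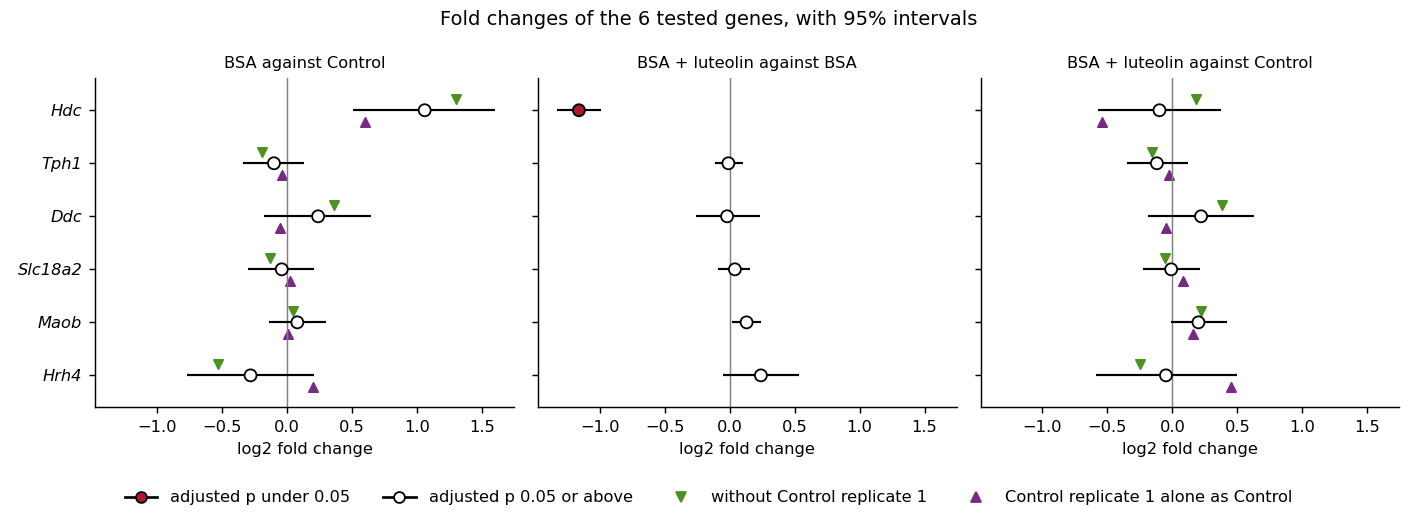
Log2 fold changes of the 6 tested genes in the 3 comparisons, with 95% intervals from edgeR's quasi-likelihood test (circles, filled where the adjusted p is under 0.05). Triangles give the value without Control replicate 1 and against Control replicate 1 alone. Hdc in BSA + luteolin against BSA (-1.16) is the 1 filled circle, and triangles on both sides of 0 mark genes whose direction against Control depends on the Control library.

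For each tested gene, the 3 genes with the most similar profile were found by the root mean square difference of mean-centred log2 CPM over the 9 libraries. Hdc, whose log2 level spanned 1.54, was nearest to Uck2 (0.163), a uridine-cytidine kinase, Cdkn1a (0.166), the cell cycle inhibitor p21, and Cish (0.168), a cytokine-inducible signaling inhibitor. Slc18a2, with a span of 0.25, was nearest to Wdr11 (0.041), H2-T22 (0.045) and Camkk2 (0.052). For Tph1 the nearest were Sirt2 (0.037), Ssh3 (0.041) and Ptger3 (0.042). Maob was nearest to Plaa (0.027), Sec63 (0.031) and Naa40 (0.035), Ddc to Dpagt1 (0.055), Xpnpep1 (0.057) and Prrc1 (0.058), and Hrh4 to Dhx57 (0.084), Hps3 (0.085) and Gng2 (0.090). These distances are a description, with no test.

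Related genes of the pathway were taken from 6 lists with 61 genes found, of which 27 passed the filter. With luteolin against BSA, 12 of the 27 were called, 8 higher and 4 lower, or 44.4% against 40.0% of all genes tested. In BSA against Control, 1 of 27 (3.70%) was called against 3.27% of all genes, and in BSA + luteolin against Control 1 of 27 (3.70%) against 3.04%. These shares were near the background in the main fit, but they moved with the Control library. Without Control replicate 1, 63.0% of the 27 were called in BSA against Control where 45.0% of all genes were, and 66.7% in BSA + luteolin against Control where 60.0% were. Against Control replicate 1 alone, the shares were 25.9% where 42.3% of all genes were called, and 11.1% where 21.2% were. The genes themselves are given by role.

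Cofactor supply covers tetrahydrobiopterin, which tryptophan hydroxylase needs, and pyridoxal phosphate, which Hdc and Ddc need. Gch1, the GTP cyclohydrolase that opens tetrahydrobiopterin synthesis, was at 184, 199 and 176 CPM in Control, at 474, 422 and 496 CPM in BSA and at 176, 157 and 144 CPM in BSA + luteolin. All BSA libraries exceeded all others, and here Control replicate 1 did not stand apart. Gch1 rose to 464 ± 38.0 CPM in BSA against 186 ± 11.5 CPM in Control (SD, n = 3 each), 1.32 on the log2 scale with a standard error of 0.11 (adjusted p = 0.00131 by edgeR's quasi-likelihood test, with 1.26 without Control replicate 1 and 1.31 against it alone). It fell to 159 ± 15.7 CPM (SD, n = 3) with luteolin, at -1.54 against BSA (standard error 0.07, adjusted p = 2.73e-11 by the same test). Of the 9 tested genes of the list, Gch1 was in the main fit the 1 called in BSA against Control and the 1 lower in BSA + luteolin against BSA. Among the genes that rose with luteolin against BSA, Spr did so by 0.36, Pts by 0.33, Qdpr by 0.29 and Pdxk by 0.20 on the log2 scale (adjusted p from 0.00275 for Pts to 0.0220 for Spr by the edgeR test). The call of Spr was lost without BSA replicate 3 (adjusted p = 0.0517), BSA + luteolin replicate 1 (0.155) or BSA + luteolin replicate 2 (0.0958), and that of Pdxk without BSA + luteolin replicate 2 (0.0827). Spr, Pts and Qdpr make and recycle tetrahydrobiopterin, and Pdxk makes pyridoxal phosphate. The list's median log2 fold change was 0.33 in that comparison, against 0.02 over all genes. Against Control, BSA + luteolin had 0 calls of 9 by edgeR, where 3.04% of all genes tested were called, 2 at an unadjusted p under 0.05, 1 by DESeq2 and 0 by limma. Without Control replicate 1, edgeR called 5 higher and 1 lower of the 9 in both comparisons with Control. Over all genes, 45.0% (BSA) and 60.0% (BSA + luteolin) were then called.

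Precursor uptake and competing breakdown had 6 tested genes of 9. Slc7a5, the LAT1 light chain that imports histidine and tryptophan, was at 772, 402 and 424 CPM in Control, at 997, 955 and 1013 CPM in BSA and at 578, 638 and 667 CPM in BSA + luteolin. BSA libraries were the highest, and Control replicate 1 lay above the luteolin libraries. It fell by 0.65 on the log2 scale with luteolin against BSA (standard error 0.06, adjusted p = 1.48e-07 by edgeR's quasi-likelihood test). Slc16a10, an aromatic amino acid transporter, rose to 14.7 ± 0.709 CPM against 11.6 ± 0.131 CPM in BSA (SD, n = 3 each, adjusted p = 0.0182). This call was lost without BSA replicate 1 (adjusted p = 0.0555), BSA replicate 3 (0.0513) or BSA + luteolin replicate 2 (0.0797), and with all 9 libraries in 1 fit (0.0883). Slc3a2, the heavy chain that pairs with Slc7a5, was at 1072 ± 43.0 and 972 ± 46.6 CPM in the same groups (adjusted p = 0.0564), and Slc7a8, a related light chain, at 923 ± 13.4 and 867 ± 29.5 CPM (adjusted p = 0.183). Against Control, 0 of 6 were called by edgeR in either comparison, where 3.27% (BSA) and 3.04% (BSA + luteolin) of all genes tested were. For BSA, 2 had an unadjusted p under 0.05, with 1 call by DESeq2 and 0 by limma, and for BSA + luteolin these counts were 1, 0 and 0. Without Control replicate 1, edgeR called 3 higher and 0 lower in both comparisons, where 45.0% (BSA) and 60.0% (BSA + luteolin) of all genes were called.

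Amine receptors had 3 tested genes of 17, and 9 of the 17 had 0 counts in every library. Htr1b, a serotonin receptor coupled to Gi, was at 1.07, 4.93 and 3.30 CPM in Control, at 10.4, 7.0 and 10.8 CPM in BSA and at 0.326, 0.648 and 1.11 CPM in BSA + luteolin. BSA was above all other libraries. Htr1b fell by 3.75 on the log2 scale with luteolin against BSA (standard error 0.30, adjusted p = 3.33e-08 by edgeR's quasi-likelihood test), ranking 16 from the lowest of the 11560 genes, from 140 to 229 counts per library to 7 to 23. Against Control, its log2 fold change in BSA was 1.65 (adjusted p = 0.116). It was 1.21 without Control replicate 1 (adjusted p = 0.00108) and 3.11 against Control replicate 1 alone (adjusted p = 5.64e-05). Hrh1, a histamine receptor, was at 1.65, 3.10 and 2.02 CPM in Control, 1.54, 1.45 and 0.829 CPM in BSA and 0.280, 0.648 and 0.484 CPM in BSA + luteolin. The groups were ordered from Control, the highest, to BSA + luteolin without overlap. Its log2 fold change was -1.41 with luteolin against BSA (adjusted p = 0.0162 by the edgeR test) and -2.21 against Control (adjusted p = 0.0427), on 6 to 49 counts per library. The first call was lost without BSA replicate 1 (adjusted p = 0.0752) or BSA + luteolin replicate 1 (adjusted p = 0.0747). The second was lost when any one library other than Control replicate 1 was left out (adjusted p from 0.147 to 0.202). Against Control replicate 1 alone it was -1.79 (adjusted p = 0.0345). Hrh2 was at 7.86 ± 0.532 CPM in BSA + luteolin and 9.0 ± 1.40 CPM in BSA (adjusted p = 0.328). Between BSA and Control, 0 of the 3 were called by edgeR, where 3.27% of all genes tested were, 1 had an unadjusted p under 0.05, and DESeq2 called 1 and limma 0. Without Control replicate 1, edgeR called 1 higher and 2 lower for BSA, where 45.0% of all genes were called. For BSA + luteolin against Control it then called 0 higher and 3 lower, where 60.0% were.

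**Figure D5:**
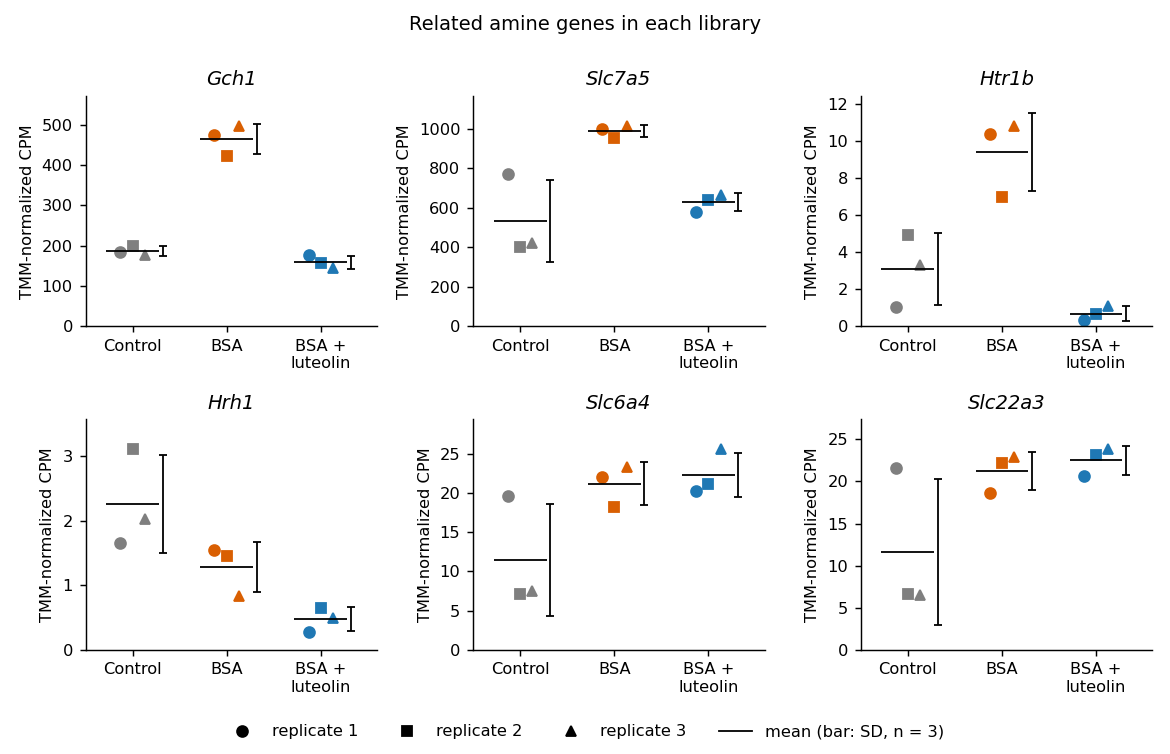
TMM-normalized CPM of 6 related genes in each library, with the axis from 0, the mean as a line and the SD (n = 3) as a bar. Gch1 (422 to 496 CPM), Slc7a5 (955 to 1013 CPM) and Htr1b (7.0 to 10.8 CPM) are highest in BSA, and Control replicate 1 of Slc6a4 and Slc22a3 lies with the stimulated libraries.

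Amine transporters had 3 tested genes of 11. Slc6a4, the serotonin reuptake transporter, was at 19.7, 7.06 and 7.50 CPM in Control, at 22.1, 18.2 and 23.4 CPM in BSA and at 20.3, 21.2 and 25.6 CPM in BSA + luteolin. Slc22a3, an organic cation transporter that carries histamine, was at 21.6, 6.67 and 6.55 CPM, at 18.6, 22.2 and 22.9 CPM and at 20.6, 23.1 and 23.8 CPM. For both genes Control replicates 2 and 3 stood alone at the low end. None of the 3 was called by edgeR, DESeq2 or limma in any comparison, and 1 had an unadjusted p under 0.05, in BSA + luteolin against Control. Leaving out Control replicate 1 gave 2 higher calls by edgeR in both comparisons with Control. Over all genes, 45.0% (BSA) and 60.0% (BSA + luteolin) were then called. Without Control replicate 1, BSA exceeded Control by 1.48 for Slc6a4 (adjusted p = 2.42e-06 by edgeR's test) and by 1.63 for Slc22a3 (adjusted p = 8.40e-07) on the log2 scale. Against Control replicate 1 alone the values were 0.09 and -0.04. These moved with the neutrophil marker sum and with Mcpt8 among the Control libraries, and the part of either in them was not tested.

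Amine breakdown, beyond the 7 genes, had 6 tested genes of 8. Aldh2, which oxidizes amine-derived aldehydes, was the most abundant, at 856 ± 72.5 CPM in BSA and 945 ± 66.3 CPM in BSA + luteolin (SD, n = 3 each, adjusted p = 0.0935 by edgeR's quasi-likelihood test). Aldh9a1 was at 81.2 ± 1.40 and 89.2 ± 3.31 CPM (adjusted p = 0.0718). Against Control, 0 of 6 were called by edgeR, DESeq2 or limma, with 1 at an unadjusted p under 0.05 for BSA and 0 for BSA + luteolin. Over all genes tested, edgeR called 3.27% for BSA and 3.04% for BSA + luteolin. Without Control replicate 1, edgeR called 1 higher and 2 lower for BSA, where 45.0% of all genes were called. For BSA + luteolin it then called 4 higher and 0 lower, where 60.0% were. Aoc1, the diamine oxidase that degrades histamine outside cells, had 0 counts in every library and was singled out after this was seen. The 6 genes of other amine synthesis (Tph2, Th, Dbh, Pnmt, Aanat and Asmt) were all below the filter, and for 4 no read was counted in any library.

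The 12 related genes called between BSA + luteolin and BSA had the same direction in all alternatives run, and leaving out 1 library left 9 to 12 of them called. With the 3 Control libraries also in the fit, Gch1 and Htr1b were the 2 of the 12 still called, as the number called over all genes fell from 4624 to 1093. The test of Hdc in that comparison passed under all of the alternatives.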

How the data were processed

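The 9 libraries were grouped by their labels into Control, BSA and BSA + luteolin, 3 each. The authors made stranded mRNA libraries, cleaned the reads with HTStream, and deposited raw counts per Ensembl gene on mm10, neither filtered nor normalized. The submitters' processing notes name STAR 2.7.0f. The strand setting and the annotation release are not given in the sources used here. Of 47643 genes, 24256 had 0 counts in every library, as had all 37 mitochondrial genes.

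All tests were run in R 4.3.3. Genes with a median CPM above 1 over the 9 libraries (11560) entered edgeR 4.0.16 (TMM scaling, two-sided quasi-likelihood test), fitted to the 6 libraries a comparison involves. P-values were adjusted after Benjamini and Hochberg across those genes, with 0.05 as the threshold. Alternatives covered DESeq2 1.42.0, limma 3.58.1, other scalings and filters, all 9 libraries in 1 fit, the replicate number as a block, and each library left out. Further ones were added after seeing the data: Control replicate 1 as the only Control, Hnmt without a filter and with each library left out, and the alternatives for related genes. CPM per kb used merged exons of GENCODE vM21 on GRCm38. Promoter windows are RefSeq's on GRCm38.p6.

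Members and lists were chosen with earlier results of these data known. Named genes are the 7 members, up to 4 called genes with the largest change and up to 2 further genes of highest CPM per related list, and the 3 nearest profiles. Pts, Tph2, Maoa, Slc18a1, Aoc1, the other synthesis genes and the single marker genes were named after their values were seen. Intervals are at 95%. Some genes of the related lists are counted but not reported by name here. Of 117 listed genes 116 were found, all but Pdxp.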

Additional observations from a re-analysis of the deposited data

How the results depend on the processing

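In BSA + luteolin against BSA, Hdc stayed lower and past the threshold under every alternative run, with log2 fold changes from -1.27 to -1.05 when 1 library was left out. Its call in BSA against Control was gained with all 9 libraries in 1 fit (1.06), DESeq2 (1.02), limma (1.09), no filter (1.1), and without Control replicate 1 (1.30). Leaving out any other library gave 0.93 to 1.16 and no call (adjusted p from 0.154 to 0.252 by edgeR's test). With Control replicate 1 as the only Control the value was 0.60. Against Control, with luteolin, it turned with the Control library (-0.54 against Control replicate 1 alone, and -0.22 to 0.18 with 1 library left out).

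Replicate numbers were shared between groups, but same-numbered libraries did not deviate together throughout (correlations of -0.256 to 0.240, -0.024 to 0.282 and -0.124 to 0.307 in the 3 comparisons, with 1, 2 and 2 of 3 libraries correlating best with their own number). With the replicate block, 144, 5582 and 212 genes were called, against 378, 4624 and 351, and Maob passed the threshold in BSA + luteolin against BSA (0.13, adjusted p = 0.0106 by edgeR), so that 2 of the 6 genes were called. It changed the call of no other of the 6 genes.

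The number of genes called against Control depended on the Control libraries. In BSA against Control it was 1105 with all 9 libraries in 1 fit, 1227 by DESeq2, 618 with no filter, 4892 with Control replicate 1 as the only Control, and 90 to 5207 with 1 library left out, highest without Control replicate 1. Between BSA + luteolin and Control it was 1251, 1379, 811 and 2447 in the same order, and 2 to 6931, again highest without Control replicate 1. Between BSA + luteolin and BSA it was 1093 with all 9 libraries in 1 fit and 3242 to 5082 with 1 library left out. Of the 6 genes, 1 was called in BSA against Control with all 9 libraries, DESeq2, limma, no filter or Control replicate 1 as the only Control, and 0 to 4 with 1 library left out. Between BSA + luteolin and Control, 1 was called with Control replicate 1 as the only Control and 0 to 4 with 1 library left out. Between BSA + luteolin and BSA, 2 were called by DESeq2, limma and no filter, 3 with library size alone, and 1 to 2 with 1 library left out.

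Maob in that comparison passed under DESeq2 (0.13), limma (0.13), no filter (0.15) and library size alone (0.25), and ranged from 0.10 to 0.16 with 1 library left out. By edgeR's test Maob passed without BSA + luteolin replicate 3 (adjusted p = 0.0245). Maob did not pass without any other library (adjusted p from 0.0937 to 0.221) or with all 9 libraries in 1 fit (0.314). In BSA + luteolin against Control it ranged from 0.18 to 0.24, and in BSA against Control it turned to -0.10 with library size alone. Slc18a2 passed with library size alone (0.15) in BSA + luteolin against BSA, where leaving out 1 library gave -0.03 to 0.10. Against Control its sign turned with no filter (0.01 in BSA, 0.06 in BSA + luteolin), filterByExpr (0.01 in BSA + luteolin) and Control replicate 1 as the only Control (0.02 and 0.08), and it ranged from -0.13 to 0.02 and from -0.06 to 0.02 with 1 library left out. Tph1 in BSA + luteolin against BSA turned with library size alone (0.10) and no filter (0.01), and ranged from -0.05 to 0.02, with -0.19 to -0.08 and -0.16 to -0.08 against Control. Ddc turned with library size alone (0.10) and no filter (0.00), ranged from -0.10 to 0.04, and against Control from 0.14 to 0.36 and from 0.13 to 0.38, with -0.05 in both against Control replicate 1 alone. Hrh4 in BSA against Control ranged from -0.53 to -0.17 and turned to 0.20 with Control replicate 1 as the only Control. In BSA + luteolin against Control it ranged from -0.25 to 0.07, with 0.45 for that Control library and 0.02 with no filter. Slc22a3 in BSA against Control turned to -0.04 there. The cause of these changes was not tested. Depth limits Hnmt and Hrh1, with 3 to 46 and 6 to 49 counts per library.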
